A study of Mus musculus with 18 samples.

Results

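Genes of fatty acid uptake, beta-oxidation and ketone metabolism, together with Ppara and further targets of the receptor PPAR-alpha that it encodes, were followed in cultured mouse hepatocytes stimulated with interleukin-6 (IL-6) and hepatocyte growth factor (HGF). The set holds 35 listed genes, each read from 1 probe set, the brightest by its mean over all 18 arrays. Of these, 34 were measured, among 18194 genes with a probe set of their own. Acsl1, which encodes a long-chain acyl-CoA synthetase, had no probe set assigned to it alone, so its level was not measured here.

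The cells were primary hepatocytes of male C57BL/6N mice aged 8 to 12 weeks, from 1 animal or a pool of up to 3 animals per experiment, grown on collagen I. Stimulated and control cells alike were kept for 24 h in serum-free medium with 100 nM dexamethasone, a glucocorticoid, and before stimulation for 4 h in starvation medium without it. Stimulated cells received 40 ng/ml of recombinant human IL-6 from 0 h. They were sampled at 1, 2, 3 and 4 h under IL-6 alone (4 arrays). HGF (recombinant mouse, 40 ng/ml) was added at 4 h, and cells under both factors were sampled at 5, 6, 7, 8, 9, 10, 12 and 24 h (8 arrays). Unstimulated controls were taken at 0, 4, 8, 12 and 24 h (5 arrays) and at -5 h (1 array), which by the hours of the protocol falls before the starvation medium. Each condition and hour was 1 array, so the hours of a stimulus stand in for replicates, and every p-value measures the spread between these arrays. No array of HGF alone, or of IL-6 alone after 4 h, was analysed here, so the part of HGF and the part of a longer time under IL-6 cannot be told apart. All levels below are the deposited values on a log2 scale, on which a difference of -1 is a 2-fold lower signal, and levels of different genes are not set against each other.

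Fatty acids enter the hepatocyte with the help of carriers, are joined to coenzyme A, and cross into the mitochondrion as carnitine esters through the Cpt1a step, which sets the pace of oxidation. Repeated cycles of dehydrogenation, hydration, a further dehydrogenation and thiolysis then shorten the chain, while very long chains are first shortened in the peroxisome. PPAR-alpha, a nuclear receptor that binds fatty acids and pairs with RXR on direct repeats of a hexamer, drives many of these genes in the liver during fasting. IL-6 induces the acute phase response of the hepatocyte, and HGF is a growth factor for it in liver regeneration.

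The arrays showed a response to IL-6 and a high level of a hepatocyte gene, and no response particular to HGF could be read. Socs3, an inhibitor induced by IL-6 signalling through STAT3, was at 9.45 to 11.09 on the 12 stimulated arrays, against 7.12 to 7.60 on the 5 controls from 0 h. Albumin (Alb) lay between 14.67 and 14.89 on all 18 arrays. Other hepatocyte markers were less steady. Cps1 read 11.58 in control at 0 h and 7.81 at 24 h, and 6.28 under IL-6 plus HGF at 24 h. Array medians lay between 5.47 and 5.57, and each array's average correlation with the remaining arrays was 0.985 to 0.994.

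Promoter windows of RefSeq ran from 250 bases before to 50 bases after each annotated start (build GRCm38.p6). They were found for 31 of the 35 listed genes (33 windows). Acsl1, whose level was not measured, is among these 31, and its windows hold no hexamer. Acaa2, Decr1, Crat and Vnn1 had no window. The 33 windows were searched on both strands for the direct repeat of the hexamer AGGTCA with 1 base between its copies. PPAR-alpha and RXR are known to bind this repeat. The exact form AGGTCANAGGTCA was in 0 of the 33 windows and in 0.0396% of all 32851 RefSeq windows. A relaxed form, AGGNCANAGGNCA, was in 1 of the 33 windows (3.03%), that of Fabp1, and in 0.381% of all windows. The single hexamer AGGTCA, which overlaps both forms, was in 7 of the 33 windows (21.2%), against 16.3% of all windows. The genes with a hexamer were Slc27a2, Cd36, Fabp1, Acadm, Acadvl, Acot4 and Cpt1a. A match is a run of letters and not a bound site, and sequence outside these windows was not searched. The following 4 windows are shown as examples. That of Fabp1 holds the repeat, those of Cpt1a and Slc27a2 hold the hexamer, and that of Hadhb is shared in part with Hadha. Other windows with a hexamer, such as that of the uptake gene Cd36, are not shown. Capitals mark the relaxed repeat in Fabp1 (chr6:71199629-71199928, plus strand), read here on the other strand, and the hexamer in Cpt1a (chr19:3323051-3323350, plus strand) and Slc27a2 (chr2:126552774-126553073, plus strand). A further hexamer of Fabp1, nearer to the start, is left in lower case.
Fabp1: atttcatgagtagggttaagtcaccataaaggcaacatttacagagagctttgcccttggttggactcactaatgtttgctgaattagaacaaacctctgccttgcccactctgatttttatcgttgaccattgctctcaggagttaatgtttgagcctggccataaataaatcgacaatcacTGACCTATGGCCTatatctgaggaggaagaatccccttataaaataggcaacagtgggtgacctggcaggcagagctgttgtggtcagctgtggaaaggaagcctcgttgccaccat
Cpt1a: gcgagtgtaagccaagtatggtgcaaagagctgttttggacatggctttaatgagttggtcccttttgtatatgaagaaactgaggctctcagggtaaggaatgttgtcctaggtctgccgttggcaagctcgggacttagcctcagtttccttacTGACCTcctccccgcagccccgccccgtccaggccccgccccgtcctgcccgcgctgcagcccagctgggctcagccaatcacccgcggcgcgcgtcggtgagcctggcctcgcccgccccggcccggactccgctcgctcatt
Slc27a2: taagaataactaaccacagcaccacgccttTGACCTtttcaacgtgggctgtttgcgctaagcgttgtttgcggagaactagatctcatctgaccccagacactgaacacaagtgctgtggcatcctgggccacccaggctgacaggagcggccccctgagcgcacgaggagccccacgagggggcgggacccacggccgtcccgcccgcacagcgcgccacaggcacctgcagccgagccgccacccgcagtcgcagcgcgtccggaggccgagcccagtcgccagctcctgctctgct
The window of Hadhb (chr5:30155003-30155302, plus strand) holds no hexamer. It overlaps that of Hadha by 228 bases, because the starts of these genes, which encode the 2 subunits of the mitochondrial trifunctional protein, lie 273 bases apart and point away from each other.
Hadhb: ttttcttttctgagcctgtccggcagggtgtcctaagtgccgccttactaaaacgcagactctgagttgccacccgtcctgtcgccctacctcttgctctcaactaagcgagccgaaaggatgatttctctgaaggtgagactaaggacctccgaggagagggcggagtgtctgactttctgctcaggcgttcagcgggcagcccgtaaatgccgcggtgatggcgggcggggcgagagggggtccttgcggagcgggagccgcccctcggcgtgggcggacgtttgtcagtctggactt

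During the first 4 hours, under IL-6 alone, 0 of the 34 genes changed at an adjusted p of 0.05 against the controls at 0 and 4 h, and 0 reached an unadjusted p of 0.05. Over all genes 0.022% were called in either direction. The median difference of the set was -0.012, beside -0.0086 over all genes. The fits on quantile-normalized values and with an intensity trend and robust variance also called 0 of the 34. The error of this test was pooled with the arrays of later hours, so it includes change over those hours. The standard error was 0.95 for Fabp1 and 0.63 for Acaa1b. On simulated data the fit recovered 46.3% of log2 changes of 0.5 and 94% of changes of 1. Those data held 67 changed genes of each of these sizes, where the real test called 4 genes. More called genes ease the adjusted threshold, so these shares are too high for the real test. The lack of a call therefore does not show that changes under IL-6 were absent. In genes with a large standard error this includes changes of 1.

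Single arrays of that period showed 1 gene apart from the rest. Pdk4, the kinase that shuts off pyruvate dehydrogenase and so spares glucose, read 8.99, 8.16, 7.51 and 7.63 at 1, 2, 3 and 4 h of IL-6, against 7.84 and 7.63 in control at 0 and 4 h. The 1 h array was thus above all 5 controls, which lay between 7.01 and 7.84, and the IL-6 arrays at 3 and 4 h lay within that range. Pdk4 was high again at 5 h, the array taken 1 h after HGF was added, at 8.61, and read 7.98 at 6 h and 7.66 at 7 h. Each of these peaks is 1 array and has no test.

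At 4 h, the last array of IL-6 alone and a control of the same hour can be set side by side. The level was lower under IL-6 in 22 of the 34 genes, where 54.2% of all genes were. Only Acot1 (-0.69), Ehhadh (-0.66) and Acot4 (-0.53) were more than 0.5 below the control. The next stimulated array, at 5 h, was lower than the IL-6 array at 4 h in 31 of the 34 genes, against 48.7% of all genes, with a median step of -0.19. Ehhadh had the lowest step, at -1.12, followed by Bdh1 at -0.67, while Pdk4 stood 0.98 above. These steps compare single arrays and were not tested.

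**Figure D1:**
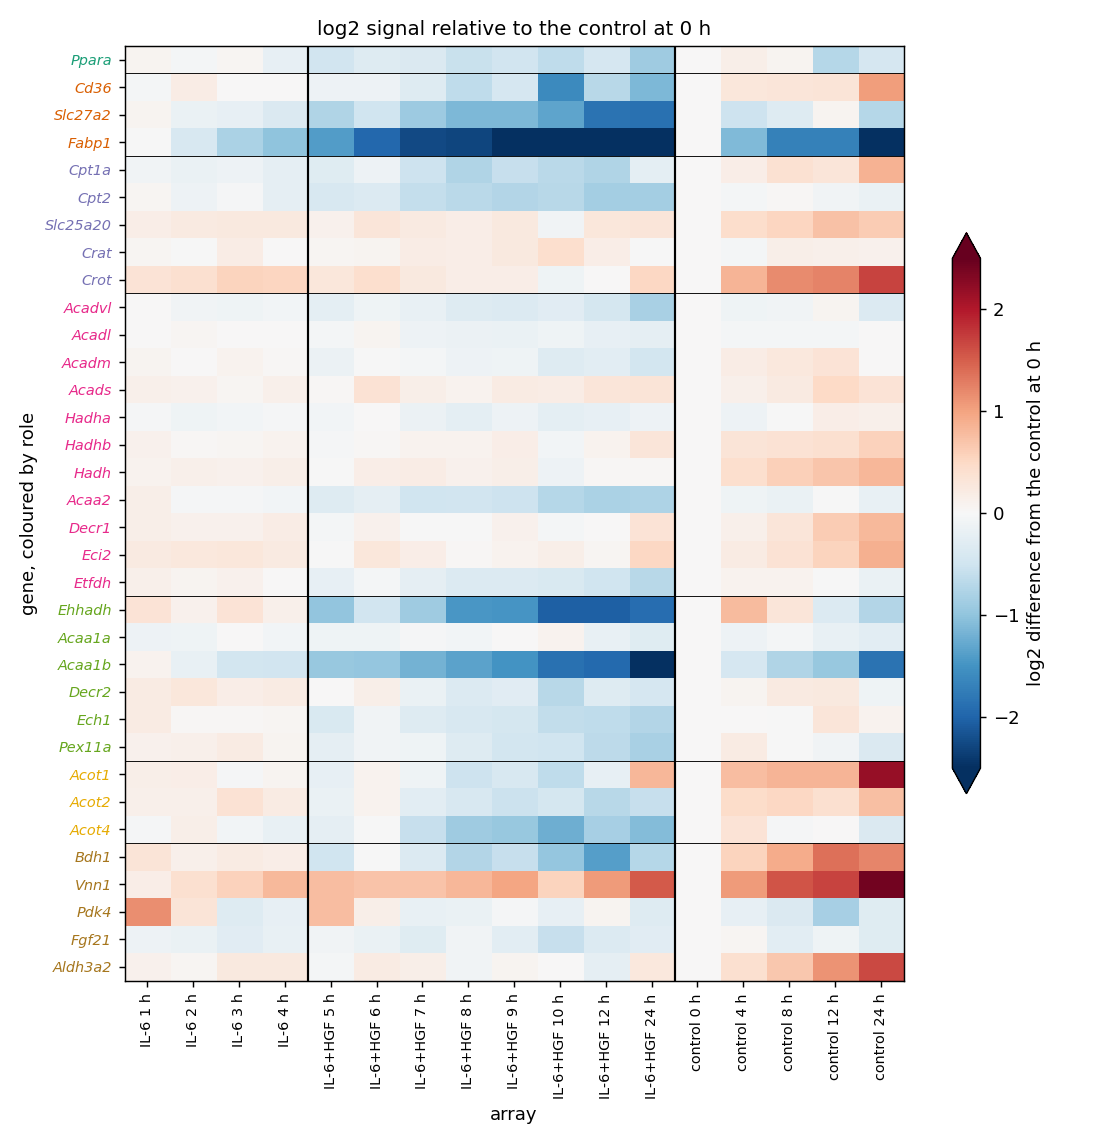
Level of each of the 34 genes (rows, coloured and grouped by role) on the arrays under IL-6 (1 to 4 h), under IL-6 plus HGF (5 to 24 h) and in control (0 to 24 h), as the log2 difference from the control at 0 h. Blue is lower and red higher than that array, the colour scale ends at 2.5 in either direction, and Fabp1 and Acaa1b fall beyond it. The controls of Crot, Acot1, Vnn1 and Aldh3a2 redden with time while the stimulated arrays of Ehhadh, Slc27a2 and Acaa1b turn blue.

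At 8, 12 and 24 h, the hours measured under both conditions, 24 of the 34 genes were lower under IL-6 plus HGF than in control and 0 were higher. Over all genes 6.45% were called lower and 2.53% higher. The difference was below 0 in 33 of the 34 genes. Its median was -0.52, beside 0.010 over all genes and -0.57 over 10 measured hepatocyte markers. The genes came from each step of the pathway: 2 of 3 carriers and uptake genes, 4 of 5 of the carnitine shuttle, 7 of 11 of mitochondrial beta-oxidation, 5 of 6 of the peroxisome, all 3 thioesterases and 3 of 5 ketone and other target genes, but not the receptor Ppara. The test was limma with the hour as a block and 2 residual degrees of freedom, and p-values were adjusted over all 18194 genes.

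The count rested on the pairing by hour and on all 3 hours. Without the hour as a block Cpt2, Hadh, Acot2 and Bdh1 alone were called lower (4 of 34, against 0.511% of all genes), and these 4 were called under each of the 11 alternative settings tried. Without the 12 h pair 15 genes were called, and Acaa1b, Acaa2, Acadm, Acadvl, Decr1, Decr2, Ech1, Eci2, Etfdh, Pex11a and Slc25a20 were lost, while Fabp1 and Ppara were gained. Of all 18194 genes, 407 were then called lower, against 1174 in the main fit. Without the 24 h pair 15 were called as well, and Acaa2, Acadm, Acadvl, Decr1, Ech1, Eci2, Etfdh, Pex11a and Slc25a20 were lost. Of all genes, 552 were then called lower. In 7 genes all 8 arrays under IL-6 plus HGF, from 5 to 24 h, lay below all 5 controls. These were Cd36, Cpt1a, Cpt2, Acadm, Acaa2, Ech1 and Bdh1. The same held for 1.97% of all genes. Some of these genes were separated only narrowly. The highest stimulated array and the lowest control read 11.676 and 11.68 in Acadm, 7.96 and 7.98 in Bdh1, and 10.63 and 10.66 in Acaa2. In Cpt2 they read 9.99 and 10.15. The controls also include earlier hours than the stimulated arrays, and this separation was not tested.

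Ppara, the receptor, was not called. It read 7.35, 7.48 and 7.02 at 8, 12 and 24 h under IL-6 plus HGF, against 7.98, 7.19 and 7.49 in control. The control at 12 h lay below the stimulated array of that hour, and the mean difference of -0.27 ± 0.17 (SE) had an adjusted p of 0.381. The value hung on single hours: it was -0.55 without the 12 h pair (adjusted p 0.0466) and -0.09 without the 8 h pair (adjusted p 0.832). The spline of time over 17 arrays also called Ppara lower (-0.31; adjusted p 0.0459). Of its 2 dimmer probe sets, one differed by -0.69 on average and the other by -0.20.

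Of the uptake genes, Cd36 and Slc27a2 were lower and Fabp1 missed the threshold. Cd36, a fatty acid translocase of the plasma membrane, read 7.54, 7.47 and 7.06 at 8, 12 and 24 h under IL-6 plus HGF, against 8.47, 8.50 and 9.22 in control (-1.37 ± 0.23, SE; adjusted p 0.0179). With an intensity trend and robust variance its adjusted p was 0.0836. The difference was -2.17 at 24 h, where the control was at its highest. The lowest stimulated value of Cd36 was 6.58 at 10 h. Slc27a2, a very long-chain acyl-CoA synthetase that also takes up fatty acids, read 8.66, 7.94 and 7.92 under IL-6 plus HGF, against 9.47, 9.87 and 9.08 in control (-1.30 ± 0.19; adjusted p 0.0134). Fabp1, the fatty acid binding protein of the liver cytosol, read 9.25, 8.06 and 5.99 under IL-6 plus HGF, against 9.86, 9.87 and 6.50 in control. Between 12 and 24 h Fabp1 fell by 2.07 under IL-6 plus HGF and fell by 3.37 in control. The difference of -0.98 ± 0.24 had an adjusted p of 0.0549.

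In the carnitine shuttle the gate and the exit were both lower. Cpt1a, the outer membrane transferase that makes the carnitine ester, read 9.51, 9.52 and 10.01 at 8, 12 and 24 h under IL-6 plus HGF, against 10.64, 10.57 and 11.12 in control. The gap was nearly equal at the 3 hours (-1.14, -1.06 and -1.11), a mean of -1.10 ± 0.07 (SE) with an adjusted p of 0.00168, that is 2.15-fold lower. Cpt2, which turns the ester back to acyl-CoA inside the mitochondrion, read 9.65, 9.48 and 9.47 under IL-6 plus HGF, against 10.34, 10.23 and 10.15 in control (-0.71 ± 0.07; adjusted p 0.00455). Slc25a20, the carnitine-acylcarnitine carrier between them, read 10.10, 10.22 and 10.24 under IL-6 plus HGF, against 10.47, 10.67 and 10.58 in control, a smaller gap (-0.39 ± 0.07; adjusted p 0.0257). Crot, the octanoyltransferase that exports shortened chains from peroxisomes, read 10.55, 10.39 and 10.91 under IL-6 plus HGF, against 11.57, 11.63 and 12.07 in control (-1.14 ± 0.08; adjusted p 0.00168). Another probe set of Crot did not share this gap, with differences of -0.05, 0.23 and -0.06 at the 3 hours, and the mean of both differed by -0.55. Crat, which forms acetylcarnitine, had a difference of -0.02 ± 0.08. Another probe set of Crat read lower at each hour, with differences of -0.41, -0.31 and -0.22, and the mean of its 3 probe sets differed by -0.13 (adjusted p 0.292).

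The 11 genes of mitochondrial beta-oxidation had differences from -0.65 to -0.12, and 7 of them were lower. Hadh, the short-chain 3-hydroxyacyl-CoA dehydrogenase, read 11.93, 11.85 and 11.85 at 8, 12 and 24 h under IL-6 plus HGF, against 12.41, 12.51 and 12.64 in control (-0.65 ± 0.09, SE; adjusted p 0.00918). Acaa2, the thiolase that ends the cycle, read 10.38, 10.06 and 10.07 under IL-6 plus HGF, against 10.68, 10.84 and 10.66 in control (-0.56 ± 0.10; adjusted p 0.0246). Of the acyl-CoA dehydrogenases, which open the cycle for chains of different length, those for medium and very long chains were lower. Acadm, for medium chains, read 11.55, 11.42 and 11.22 under IL-6 plus HGF, against 11.94, 12.01 and 11.69 in control (-0.48). Acadvl, for very long chains, read 10.91, 10.80 and 10.43 under IL-6 plus HGF, against 11.15, 11.30 and 10.89 in control (-0.40). Acadl (-0.17) and Acads (-0.12) did not pass. Etfdh, which hands the electrons on to ubiquinone, read 10.56, 10.40 and 10.22 under IL-6 plus HGF, against 10.98, 10.89 and 10.74 in control (-0.48). Decr1, an auxiliary enzyme for unsaturated chains, read 10.35, 10.38 and 10.71 under IL-6 plus HGF, against 10.66, 10.99 and 11.17 in control (-0.46). Eci2, another such enzyme, read 9.45, 9.47 and 9.94 under IL-6 plus HGF, against 9.78, 9.97 and 10.30 in control (-0.40). Acadm, Acadvl, Etfdh, Decr1 and Eci2 had adjusted p between 0.0143 and 0.0358. Decr1 and Eci2 were at their highest at 24 h in both conditions, whereas Acadm, Acadvl and Etfdh were at their lowest of the 3 hours there. Hadha and Hadhb, the subunits of the trifunctional protein whose start regions overlap, had nearly the same difference, -0.28 and -0.29, with adjusted p of 0.068 and 0.0543.

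In the peroxisome Ehhadh had the most negative difference. Ehhadh, the bifunctional enzyme of the peroxisomal cycle, read 7.45, 6.86 and 7.00 at 8, 12 and 24 h under IL-6 plus HGF, against 9.20, 8.55 and 8.16 in control (-1.54 ± 0.12, SE; adjusted p 0.0023), 2.90-fold lower. Acaa1b, a peroxisomal thiolase, read 9.60, 8.99 and 6.77 under IL-6 plus HGF, against 10.18, 9.99 and 9.07 in control (-1.30 ± 0.29; adjusted p 0.0443). Without the 24 h pair the Acaa1b difference was -0.79, and its call was lost under 6 of the 11 settings. The near-identical Acaa1a had a difference of -0.02 on its brightest probe set. Its other probe set differed by -0.29, -0.46 and -0.76 at the 3 hours, and the mean of both by -0.26 (adjusted p 0.0968). Signals of these paralogs are uncertain, since further probe sets are assigned to both of them and were not used. Ech1, which handles double bonds, read 9.83, 9.60 and 9.51 under IL-6 plus HGF, against 10.24, 10.55 and 10.32 in control (-0.72 ± 0.11; adjusted p 0.0157). Decr2, which does so as well, read 7.81, 7.82 and 7.72 under IL-6 plus HGF, against 8.36, 8.39 and 8.03 in control (-0.47; adjusted p 0.022). Pex11a takes part in the division of peroxisomes. It read 8.71, 8.39 and 8.24 under IL-6 plus HGF, against 9.04, 8.95 and 8.69 in control (-0.45; adjusted p 0.0222).

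The 3 acyl-CoA thioesterases, which split acyl-CoA into free acid and coenzyme A, were all lower. Acot1, the cytosolic form, read 5.66, 5.97 and 7.00 at 8, 12 and 24 h under IL-6 plus HGF, against 7.03, 7.03 and 8.35 in control (-1.26 ± 0.09, SE; adjusted p 0.00168). Both conditions were at their highest at 24 h, and the gap stayed at -1.35 there. Acot2, the mitochondrial form, read 8.87, 8.58 and 8.70 under IL-6 plus HGF, against 9.78, 9.67 and 10.02 in control (-1.11 ± 0.10; adjusted p 0.00295). Acot4, a peroxisomal form, read 6.03, 6.09 and 5.83 under IL-6 plus HGF, against 6.89, 6.92 and 6.56 in control (-0.81 ± 0.07; adjusted p 0.00319). The 3 genes lie side by side on the plus strand of chromosome 12, their starts within 50.5 kb, and Acot1 and Acot2 share probe sets that were not used, so signal from one may reach the other.

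Of the ketone and other target genes, Bdh1 had the most negative difference of all 34 genes. Bdh1, which makes beta-hydroxybutyrate from acetoacetate, read 7.25, 6.61 and 7.27 at 8, 12 and 24 h under IL-6 plus HGF, against 8.90, 9.36 and 9.19 in control (-2.11 ± 0.19, SE; adjusted p 0.0033), 4.31-fold lower. Over all hours Bdh1 lay between 6.61 and 7.96 (median 7.34) under IL-6 plus HGF, against 7.98, 8.54, 8.90, 9.36 and 9.19 in control from 0 to 24 h. Aldh3a2, which oxidises fatty aldehydes, read 8.87, 8.75 and 9.22 under IL-6 plus HGF, against 9.64, 10.10 and 10.60 in control (-1.17 ± 0.13; adjusted p 0.00552). Vnn1, a pantetheinase, read 10.35, 10.60 and 11.06 under IL-6 plus HGF, against 11.10, 11.21 and 11.94 in control (-0.75 ± 0.08; adjusted p 0.00546). Pdk4 (0.35 ± 0.17; adjusted p 0.255) was the only gene of the 34 with a difference above 0 on the values as deposited, though Crat and Acaa1a also came out above 0 after quantile normalization. Its difference was 0.19, 0.89 and -0.02 at the 3 hours, and 0.08 without the 12 h pair. Fgf21, the fasting hormone, stayed between 4.81 and 5.28 under IL-6 plus HGF, against 5.08 to 5.42 in control, and did not pass. These values lie below every array median (5.47 or more), and Fgf21 was dropped with the dimmest genes. Its signal is thus too dim to show that its level was unchanged.

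**Figure D2:**
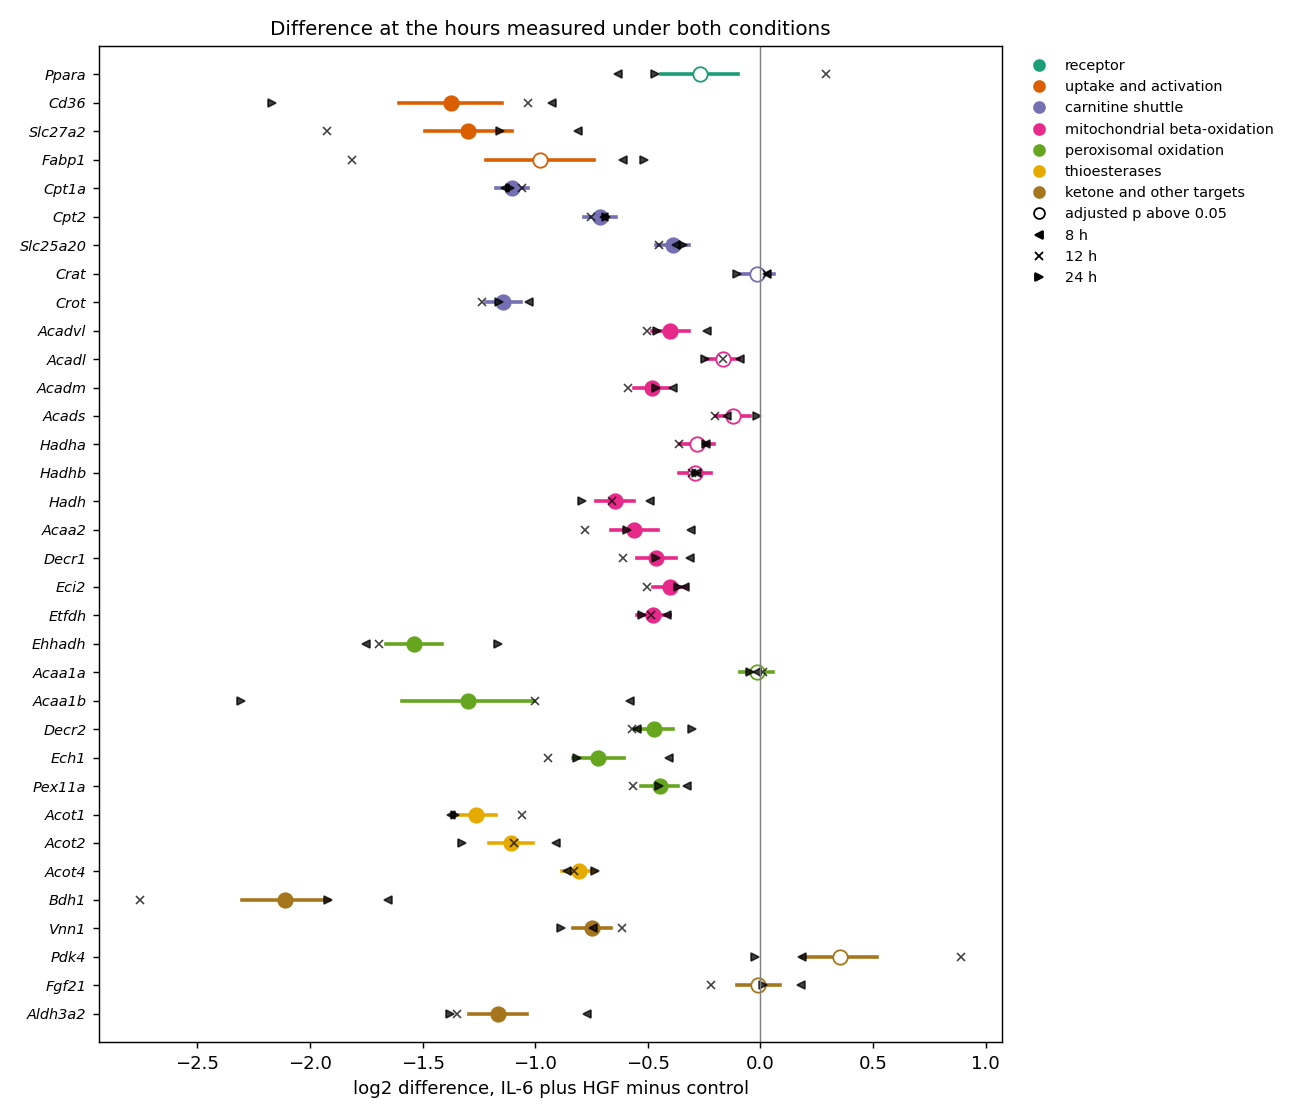
Difference between IL-6 plus HGF and control for each gene at the hours measured under both, on the log2 scale. Large circles are the mean of the 3 hours with 1 standard error (bar), filled where the adjusted p was at most 0.05, and small symbols are the single hours. Cpt1a, Cpt2 and Crot have their 3 hours close together, while Cd36 and Acaa1b stretch to -2.17 and -2.31 at 24 h.

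Set against the control at 0 h, a gap at the matched hours could arise from a lower stimulated level, from a higher control level or from both. Of the 24 lower genes, 17 had a mean under IL-6 plus HGF below the control at 0 h, and 7 had a mean at or above it. These 7 were Slc25a20, Crot, Hadh, Decr1, Eci2, Acot1 and Vnn1. In 10 of the 24 the larger part of the gap was a control mean above the 0 h control. One of the 10 was Aldh3a2, at -0.02 under IL-6 plus HGF and 1.15 in control. In Crot, the stimulated mean was 0.23 above the 0 h control and the control mean 1.37 above it. In Vnn1, the stimulated mean was 1.15 above and the control mean 1.89 above. In Acot1 the stimulated mean was 0.03 above and the control mean 1.30 above, so this gap lay almost wholly on the control side.

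In 9 of the 24 genes both means lay below the control at 0 h. The mean of Ehhadh differed from that array by -1.80 under IL-6 plus HGF and by -0.26 in control. The mean of Slc27a2 differed by -1.62 under IL-6 plus HGF and by -0.32 in control. For Acaa1b the values were -2.48 under IL-6 plus HGF and -1.18 in control, so the control fell as well. In Bdh1 the means lay on either side of the 0 h control, at -0.93 under IL-6 plus HGF and 1.18 in control. The same held for Cpt1a, at -0.59 under IL-6 plus HGF and 0.51 in control. The 0 h control is a single array, so these values describe the arrays and were not tested.

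Over time under IL-6 plus HGF, from 5 to 24 h, 10 of the 34 genes fell and Vnn1 rose. Over all genes 4.84% fell and 6.25% rose. Slopes are log2 units for each doubling of the hour. Fabp1 had the steepest slope, -1.80 ± 0.09 (SE; adjusted p 1.04e-05), with 10.15, 9.59, 9.30, 9.25, 8.64, 8.67, 8.06 and 5.99 at the 8 hours. Acaa1b followed at -1.44 ± 0.14 (-0.88 without the 24 h array), then Slc27a2 at -0.63 ± 0.11 and Ehhadh at -0.62 ± 0.18. Pex11a, Acadvl, Acaa2, Etfdh, Ech1 and Cpt2 fell too, with slopes between -0.34 and -0.23. Vnn1 rose by 0.36 ± 0.09 per doubling.

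These trend calls leaned on single arrays. Fabp1, Acaa1b and Slc27a2 were called whichever array was left out. Acaa2 and Cpt2 were lost when any 1 array other than that at 10 h was left out, and Ech1 without that at 6, 7, 8, 9, 12 or 24 h. These 3 genes were also lost with centring. Pex11a, Acadvl and Etfdh were lost without the array at 24 h. Ehhadh was lost without the array at 5, 6, 7, 8, 9 or 12 h, and also with centring. It was lost as well when the probe sets of every gene were averaged, although Ehhadh itself has 1 probe set. Without the 24 h array Ehhadh was called, with a slope of -1.18, and 4 genes in all fell, while Vnn1 was no longer called (0.16). Of all 18194 genes, 194 fell and 50 rose without it, against 880 and 1137 with all arrays. Vnn1 was also lost without the array at 6, 7, 8 or 12 h. Ehhadh had reached 6.86 at 10 h and read 6.86 and 7.00 at 12 and 24 h. Without the array at 6, 7, 8 or 9 h, 6 genes were called falling each time, and 648, 695, 727 or 749 of all genes. Between 12 and 24 h, 16 of the 34 genes went up under IL-6 plus HGF and 18 (52.9%) went down, near the 57.6% of all genes that did. The largest steps up were those of Acot1 (1.03), Bdh1 (0.67) and Crot (0.52). In control, 14 of the 34 genes went up between these hours.

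In control cells, between 0 and 24 h, 5 of the 34 genes rose and Acaa1b fell. Over all genes 2.14% rose and 1.46% fell. Vnn1 had the steepest rise, 0.51 ± 0.03 log2 units per doubling of the hour plus 1 (SE; adjusted p 0.00647), with 9.52, 10.60, 11.10, 11.21 and 11.94 at 0, 4, 8, 12 and 24 h. Crot rose by 0.36 ± 0.03 per doubling, with 10.38, 11.23, 11.57, 11.63 and 12.07 at those hours. With the mean of its probe sets the slope of Crot was 0.18. Aldh3a2 (0.34), Bdh1 (0.30) and Hadh (0.18) rose as well. Acaa1b fell by 0.36 ± 0.07 per doubling. Without the array at 0 h the slopes were -0.61 for Acaa1b and 0.55 for Aldh3a2. Fabp1, at 11.55, 10.44, 9.86, 9.87 and 6.50, had a slope of -0.90 ± 0.22 that missed the threshold (adjusted p 0.0751). Leaving out the array at 0, 4, 8 or 12 h left 2, 2, 2 or 3 genes called rising. Of all 18194 genes, 194, 14, 20 or 104 were then called rising, against 390 with all arrays. The rise of Vnn1 was called each time. Bdh1 was lost without the array at 0, 4 or 8 h and Hadh without that at 0, 4, 8 or 12 h. Crot was lost without the array at 0 h, and Aldh3a2 and the fall of Acaa1b without that at 4, 8 or 12 h.

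The slopes of the 2 conditions were compared in 1 fit over the controls from 4 to 24 h and the arrays under IL-6 plus HGF. The difference between them was called in 0 of the 34 genes, and in 0.0989% of all genes. An unadjusted p of 0.05 was reached by 11 of the 34 genes and by 1144 of all 18194 genes. The slope was lower under IL-6 plus HGF than in control in 31 of 34 genes, with a median difference of -0.16, beside -0.00063 over all genes. Acaa1b (-0.90 ± 0.19; adjusted p 0.149), Cd36 (-0.78 ± 0.23; adjusted p 0.479) and Aldh3a2 (-0.45 ± 0.11; adjusted p 0.278) had the lowest p. With an intensity trend and robust variance 0 of the 34 were called as well, and without the control at 24 h, or without the stimulated array at 5 h or at 10 h, 1 gene was called lower. Of all genes, 16, 25 and 27 were called lower without these arrays in turn. A difference in slope is therefore not shown for these genes.

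**Figure D3:**
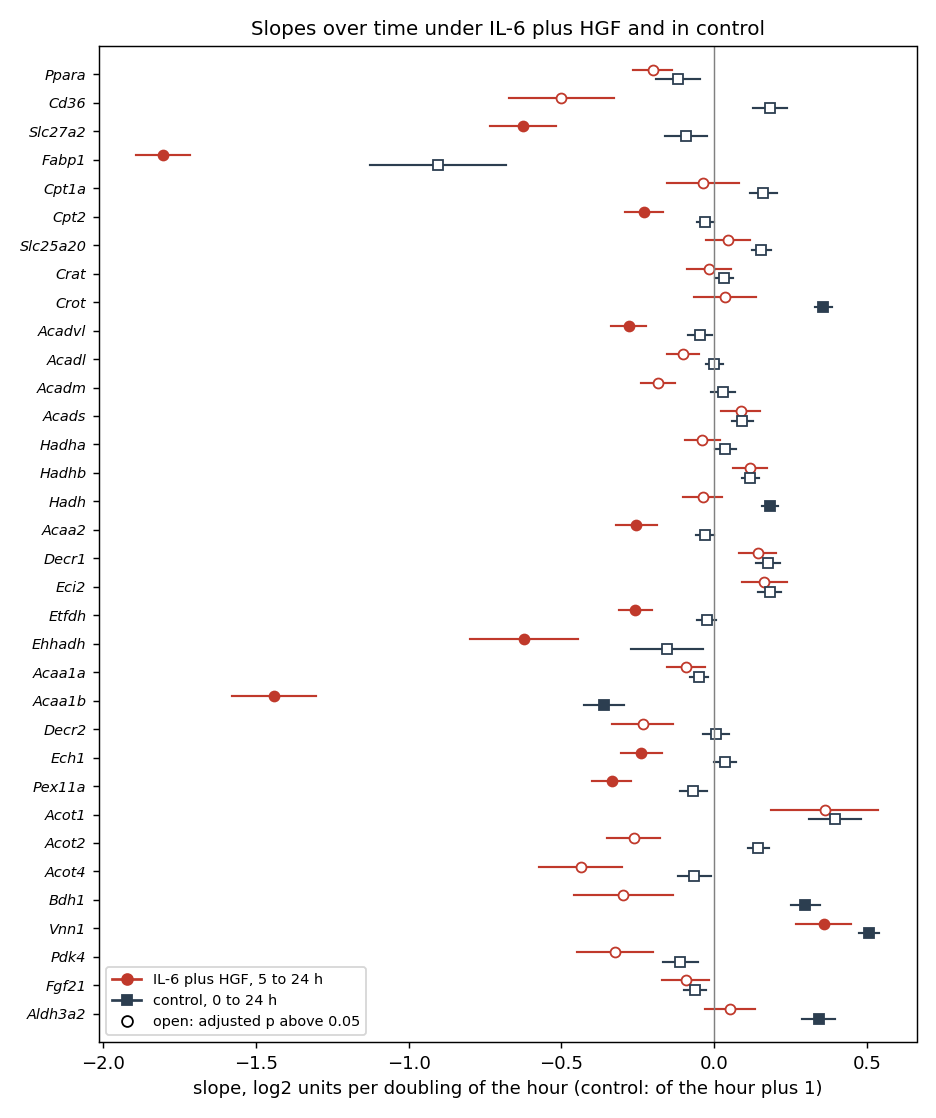
Slope of each gene over time on the log2 scale, under IL-6 plus HGF (circles, per doubling of the hour, 5 to 24 h) and in control (squares, per doubling of the hour plus 1, 0 to 24 h), with 1 standard error. Filled symbols had an adjusted p of at most 0.05. Fabp1 and Acaa1b lie far to the left under IL-6 plus HGF, at -1.80 and -1.44, and Vnn1 lies to the right in both conditions.

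**Figure D4:**
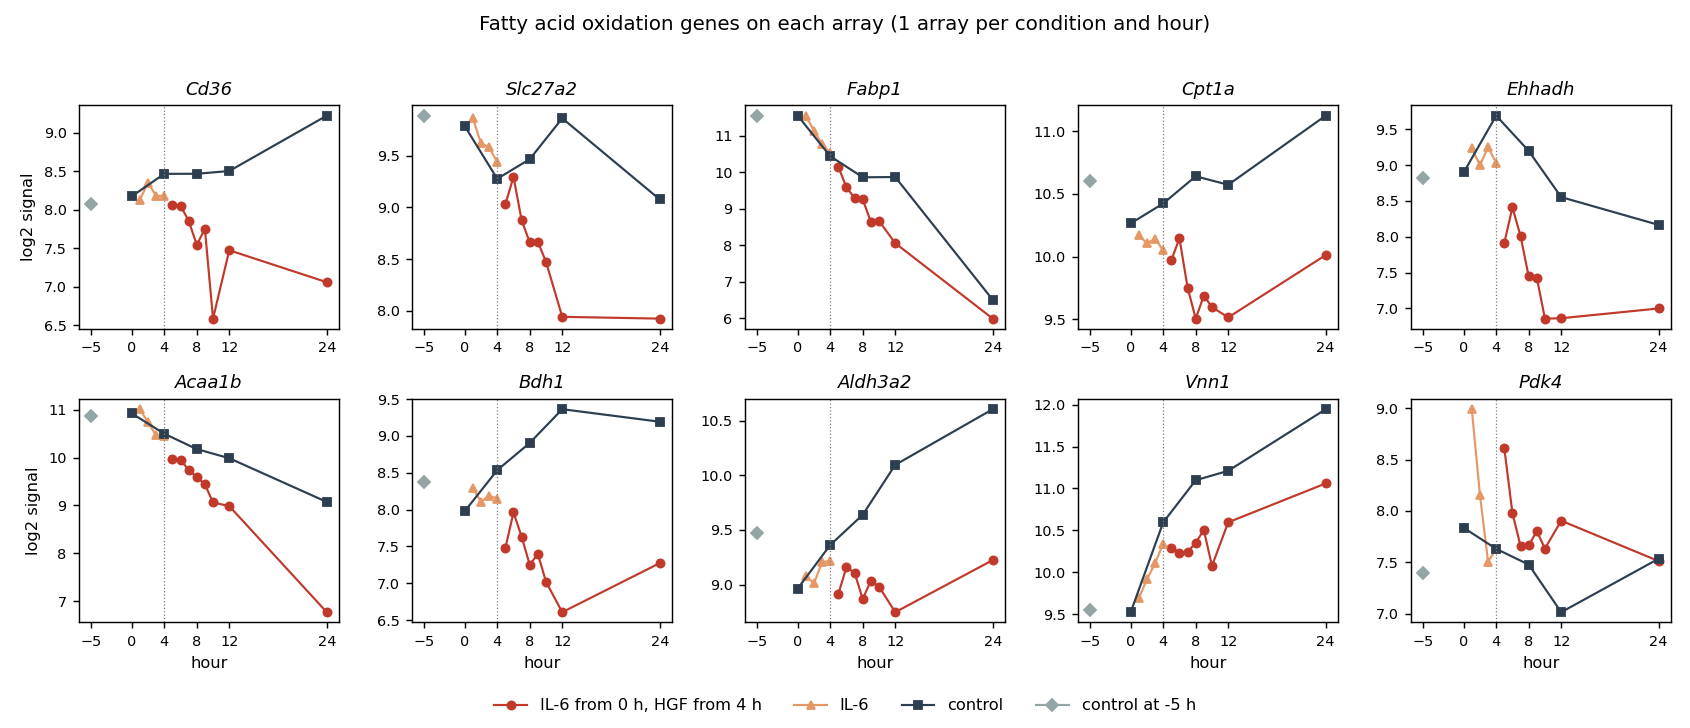
Log2 level of 10 genes on every array against the hour, under IL-6 plus HGF (circles), under IL-6 (triangles) and in control (squares), with the control at -5 h (diamond); the dotted line marks the addition of HGF at 4 h. Bdh1 and Aldh3a2 rise in control and stay flat or lower under IL-6 plus HGF, Fabp1 falls in both conditions, and Pdk4 peaks at 1 h and at 5 h.

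The stimulated arrays from 6 to 12 h were also set against the arrays of the hours beside them. At 6 h, 24 of the 34 genes (70.6%) were above both the 5 h and the 7 h array, against 36.6% of all genes. Bdh1 was at 7.96 there, against 7.48 and 7.63 at 5 and 7 h, and Ehhadh at 8.41, against 7.91 and 8.01. At 8 h, 1 of the 3 matched hours, 18 of the 34 (52.9%) were below both neighbours, against 33.9% of all genes. At 9 h, 18 (52.9%) were above both, against 35.4% of all genes. At 10 h, 17 (50%) were below both, against 45.2% of all genes. These are single arrays and were not tested. The nuclear RNA Malat1 moved as well: it read 9.16 at 6 h, below all other stimulated arrays (10.69 or more), and its highest value on any array was 12.68 at 10 h. Malat1 was also higher at the matched hours under IL-6 plus HGF (1.56 ± 0.21, SE; adjusted p 0.00902), and its part in the results on the fatty acid genes was not tested.

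The control at -5 h, before the starvation medium, was 1 array and gave no call. Against the 5 later controls, 0 of the 34 genes and 0% of all 18194 genes passed. An unadjusted p under 0.05 was found for 4 of the 34 and for 1018 of the 18194. Ppara read 8.68 at -5 h, above each later control, which read 7.91, 8.06, 7.98, 7.19 and 7.49. The other genes with such a p were Pex11a (9.66, against 8.69 to 9.25), Acot4 (7.60, against 6.56 to 7.26) and Acaa2 (11.08, against 10.66 to 10.85), all above the later controls. Fabp1 read 11.54 at -5 h and 11.55 at 0 h, so its loss began after 0 h.

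A further list of 79 genes of fatty acid, peroxisomal and ketone metabolism and of PPAR signalling gave 68 measured genes. At the matched hours 31 of them were lower and 2 higher, with a median of -0.31. Over all genes 6.45% were lower and 2.53% higher, so the 2 higher genes are near the share of all genes. The lowest were Pparg (-1.54 ± 0.18, SE), a PPAR best known from fat cells, then Acad11 (-1.28), an acyl-CoA dehydrogenase, Lpin2 (-1.22), a phosphatidate phosphatase, Acot12 (-1.17), an acetyl-CoA hydrolase, Creb3l3 (-1.14), a fasting-induced transcription factor of the liver that acts with PPAR-alpha, and Amacr (-1.07), a racemase for branched chains. Angptl4, a PPAR target that inhibits lipoprotein lipase, was higher by 0.84 ± 0.07 (adjusted p 0.00295), and Acsl3, an acyl-CoA synthetase, by 0.33 ± 0.07. Adjusted p values of these 8 genes lay between 0.00168 and 0.0457.

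Over time under IL-6 plus HGF, 21 of the 68 genes fell and 0 rose, where 4.84% of all genes fell and 6.25% rose. The steepest were Cyp4a14 (-1.36), Acsm1 (-1.23), Cyp4a12a (-1.12), Slc27a5 (-1.10), Fabp2 (-0.99) and Creb3l3 (-0.86 per doubling). Cyp4a14 and Cyp4a12a are fatty acid omega-hydroxylases, and close paralogs of theirs may share signal. In control, 4 of the 68 rose and 4 fell, where 2.14% of all genes rose and 1.46% fell. Under IL-6 alone 0 of the 68 were called, and 2 had an unadjusted p under 0.05, against 656 of all 18194 genes.

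Markers of the cells were read beside these results. Of 10 measured hepatocyte markers, 6 were lower at the matched hours under IL-6 plus HGF, among them Cps1 of the urea cycle (-1.48 ± 0.23, SE) and the nuclear receptor Hnf4a (-0.67 ± 0.10). Over all genes 6.45% were called lower and 2.53% higher. All 10 markers were below 0, with a median of -0.57, beside -0.52 for the 34 fatty acid genes. Over time under IL-6 plus HGF 6 of the 10 fell, with a median slope of -0.42, beside -0.19 for the 34 genes. The mean log2 level of the 10 markers at the matched hours lay between 9.68 and 10.89 under IL-6 plus HGF, against 10.34 to 11.22 in control. Albumin differed by -0.04 and did not pass. Of 15 Kupffer cell markers Cd68 was lower, with a mean level of all 15 between 6.89 and 7.04 under IL-6 plus HGF, against 6.96 to 7.25 in control. Of 13 endothelial markers Clec4g and Oit3 were lower (mean 6.60 to 6.88 under IL-6 plus HGF, against 6.91 to 7.09 in control). None of 11 stellate cell and fibroblast markers was called (mean 6.42 to 6.53 under IL-6 plus HGF, against 6.47 to 6.77 in control). Of these 11, 3 had an unadjusted p under 0.05, as had 4531 of all 18194 genes. Of 5 cholangiocyte markers Sox9 and Cldn4 were higher (mean 7.48 to 8.02 under IL-6 plus HGF, against 7.24 to 7.60 in control). Fewer cells of a type and less RNA per cell cannot be told apart in these bulk samples, and the part of cell makeup in the results on the fatty acid genes was not tested.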

How the data were processed

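RNA of 18 cell samples was hybridised to one-color Affymetrix arrays of 45101 probe sets. The values used are those the authors deposited, 1 per probe set and array, between 2.095 and 15.049; the log2 scale of the deposited values was inferred from their range, and their summarization and normalization steps are not stated (not given in the sources used here). Sorted values differed between arrays by at most 0.118 from their mean, so arrays had been put on nearly 1 distribution, which hides any shift common to all genes.

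Probe sets were named through the platform annotation, updated by gene ID: 34958 carry 1 gene, 932 several and 9211 none. Probe sets of 1 gene were used, the one with the highest mean for each of 18194 genes. Genes were tested with limma 3.58.1 (lmFit and eBayes) in R 4.3.3 on the log2 values, and p-values were adjusted by Benjamini-Hochberg over all genes, with a threshold of 0.05. IL-6 at 1 to 4 h was set against controls at 0 and 4 h as means of 4 cells over 17 arrays, IL-6 plus HGF against control at 8, 12 and 24 h with the hour as a block, and slopes were fitted on the logarithm of the hour. Each fit was tested on simulated data.

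The genes, the lists and the tests were chosen with earlier results of these data known. Values are given at each matched hour for genes called there and by hour for those with the steepest slopes, with up to 6 called genes of the wider pathway list per comparison by size, and otherwise as counts and ranges; the 2 higher genes of that list (Angptl4 and Acsl3), the cell marker genes, the genes named from single arrays (4 to 5 h, and the arrays from 6 to 10 h) and the comparison with the 0 h control were chosen after their values were seen. Alternatives were quantile normalization, centring, dropping the dimmest genes (below the 40th percentile), robust variance with an intensity trend, averaging a gene's probe sets, leaving out each array or pair, and other models of time. The number of arrays limits the precision.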

Additional observations from a re-analysis of the deposited data

Results flagged for a closer look

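In 102 sets of 4 to 8 arrays of 1 condition, the highest or lowest value was set against the nearest other value, and 5 stood apart by Dixon's criterion, where chance gives about 1 in 20. Acaa1b under IL-6 plus HGF at 24 h (6.77) lay below the nearest other array of that condition (8.99). Decr1 on the same array (10.71) lay above its nearest value (10.48). Pdk4 at 5 h, 1 h after HGF was added, read 8.61, above 7.98 on the next array. Ech1 read 10.44 under IL-6 at 1 h, above 10.29 on the nearest other IL-6 array, and 10.55 in control at 12 h, above 10.32 on the nearest other control. Each of these is 1 array at 1 hour, so its distance from the other hours and a change with time cannot be told apart.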

How the results depend on the processing

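Against 24 genes called lower at the matched hours, 22 of these 24 and no others were called after quantile normalization (Acaa1b and Acadvl lost) and with the mean of all probe sets (Acaa1b and Etfdh lost). Of all 18194 genes, 1174 were called lower in the main fit, and 889 and 961 under these settings. Robust variance with an intensity trend called 24, 22 of them the same (Acaa1b and Cd36 lost, Hadha and Hadhb gained). With centring, without dim genes and with a spline of time 27 were called, the 24 and 3 others. The number of all genes called lower rose there too, to 1512 of 18194, 1377 of 10916 and 2096 of 18194. With robust variance it was 1498 of 18194. As means of 4 cells over 17 arrays 20 were called, 18 of them the same: Acaa1b (-0.56), Acadvl (-0.22), Etfdh (-0.31), Pex11a (-0.24), Acot4 and Decr2 were lost, and Slc27a2 was at -0.86. Without the hour block 4 were called and without 1 pair of hours 15 to 19. Of all genes, 93 were called lower without the block, 407 to 613 without 1 pair and 1091 as means of 4 cells. None of these settings called a gene of the 34 higher. The median difference was -0.51 to -0.61 without 1 pair, -0.44 as means of 4 cells and -0.42 with the spline. Genes near 0 changed sign: Crat to 0.035 after quantile normalization, 0.035 with 4 cells, 0.054 with the spline and -0.039 to 0.030 without 1 pair; Acaa1a to 0.038, 0.080 and 0.031 under the same 3 settings; and Fgf21 to between -0.10 and 0.095 without 1 pair. The count of genes falling under IL-6 plus HGF was 6 with centring, 4 without 24 h and 4 to 13 without 1 array. Over all genes it was 770, 194 and 194 to 1326, against 880 in the main fit. The count of genes rising was 0 with the mean of probe sets, 0 without 24 h and 0 to 1 without 1 array. Over all genes it was 968, 50 and 50 to 1769, against 1137 in the main fit. In control, genes rising numbered 10 without dim genes, 10 with robust variance, 8 with hours not on a log scale and 2 to 7 without 1 array. Over all genes they numbered 605 of 10916, 568, 1123 and 14 to 391, against 390 in the main fit. Genes falling in control numbered 2 with hours not on a log scale, 2 without 24 h and 0 to 2 without 1 array. Over all genes they numbered 562, 275 and 9 to 275, against 266 in the main fit. For the slope difference, 1 gene was lower with hours not on a log scale and 0 to 1 without 1 array, and its median was -0.31 without 24 h and -0.31 to -0.13 without 1 array. Of all genes, 26 were lower with hours not on a log scale and 0 to 27 without 1 array. The median at -5 h was 0.12 against the controls at 0 and 4 h. The cause of these shifts was not tested, other than the fewer arrays. The matched hours were fitted as pairs of the same hour. No paired analysis was possible by replicate number, because these numbers mark hours that differ between the groups.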

Other observations

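The hour of the lowest and highest level differed among the 24 genes lower at the matched hours. Under IL-6 plus HGF the lowest array was that at 10 h for 9 of them, at 24 h for 8, at 12 h for 4, at 5 h for 2 (Decr1 and Eci2) and at 8 h for Cpt1a. In control the highest array was that at 24 h for 10 of them, among them Cd36, Crot, Hadh and Vnn1, at 12 h for 7, at 4 h for 4, at 0 h for Acaa2 and Acaa1b and at 8 h for Cpt2. The same was not counted over all genes, so these hours are not shown to be particular to the 24 genes. On the stimulated array at 10 h, 45.2% of all genes lay below both neighbouring hours.

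One hour into IL-6, 27 of the 34 genes read above the control at 0 h, with a median of 0.11, where 52.6% of all genes read below it. Pdk4 was 1.16 above, Crot 0.35, Ehhadh 0.34 and Bdh1 0.31. These are single arrays and were not tested.

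Of the 34 genes, 20 had several probe sets of their own, and in 17 of them all probe sets had the same sign at the matched hours; Acadl, Crot and Hadhb were the exceptions. During the first 4 hours under IL-6, 14 of 15 Kupffer cell markers were below the controls at 0 and 4 h, with a median of -0.50. Of these 15, 0 passed after adjustment (limma), and 9 had an unadjusted p under 0.05, against 656 of all 18194 genes.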
